A study of Mus musculus with 5 samples.

Results

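Fibroblasts of the mammary gland lie in the connective tissue around the ducts, and an epithelial preparation can carry some of them along. A set of 10 genes that mark fibroblasts (Pdgfra, Thy1, Dpp4, Tcf21, Pi16, Clec3b, Mfap5, Fbln1, Fbln2 and Dpt) was followed over 5 microarrays of mammary epithelial cells as a measure of stromal signal, and set beside Mmp14, the gene targeted in the study. The members were taken by name. Each had 1 probe set annotated to that gene only, so all 10 of 10 were measured, among 22180 genes of the table. Cells came from inguinal glands, free of lymph node, of 4-week-old mice on a congenic FVB/NJ background. Per the labels' protocols, collagenase released the cells, several spins removed the stromal fraction, and cDNA for each array was made from 10 ng of total RNA. The conditional knockout (MMTV-Cre+/Mmp14(f/f), 2 arrays) carries a Cre transgene under the mouse mammary tumour virus promoter, which acts mainly in epithelium. The wild type (Mmp14(f/f), 3 arrays) consists of littermates without Cre, so both groups carry the floxed Mmp14 alleles, and fibroblasts are not the cells that this promoter is meant to target. The labels call the arrays biological replicates without giving the number of mice behind each, so a p-value here reflects only the scatter among these 5 samples. Values are log2 signals per probe set, where 1 unit is a doubling of signal.

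Fibroblasts build and remodel the interstitial matrix, and in the growing mammary gland they surround the advancing ducts and supply growth factors and matrix. Cells near vessels and fascia (adventitial fibroblasts) are known for Pi16, Dpp4 and Clec3b, whereas Pdgfra, Thy1, Dpt and the fibulins are carried more widely by fibroblasts. MMP14 is a protease held in the cell membrane, where it cuts collagen and activates pro-MMP2. It is made by stromal cells as well as by epithelium, so Mmp14 RNA from stroma can add to the signal of a preparation.

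Pdgfra followed Mmp14 over the arrays more closely than most of the other markers did, while Dpt and Fbln2 followed each other, as given below. The RefSeq promoter windows of these 4 genes (250 bases before the transcript start and 50 after it, GRCm38.p6, gene strand, which is + in each case) are shown as examples. They are not the closest cases. Thy1 and Mfap5 followed Mmp14 more closely than Pdgfra did but had no window, and Fbln1 followed Dpt in more pairs of arrays than Fbln2 did. Capitals mark 3 motifs, searched on both strands. They are the GC box, spelled GGGCGG, the TATA box, spelled TATAAA, and an E-box, spelled CAGCTG. No matches overlap each other, but an E-box abuts the TATA box of Dpt and the GC boxes of Mmp14 adjoin.
Pdgfra, chr5:75152001-75152300: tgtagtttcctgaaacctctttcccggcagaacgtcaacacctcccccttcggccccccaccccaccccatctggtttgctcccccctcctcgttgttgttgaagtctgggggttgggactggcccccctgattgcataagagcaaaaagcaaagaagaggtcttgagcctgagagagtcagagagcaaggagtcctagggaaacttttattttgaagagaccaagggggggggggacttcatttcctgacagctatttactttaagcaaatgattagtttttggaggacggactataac
Mmp14, chr14:54431348-54431647: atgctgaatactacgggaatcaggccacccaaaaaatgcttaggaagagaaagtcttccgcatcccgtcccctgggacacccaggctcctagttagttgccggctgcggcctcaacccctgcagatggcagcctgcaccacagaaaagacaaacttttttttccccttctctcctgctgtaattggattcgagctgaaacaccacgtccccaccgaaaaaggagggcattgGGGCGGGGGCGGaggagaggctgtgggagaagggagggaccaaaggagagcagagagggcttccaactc
Dpt, chr1:164796413-164796712: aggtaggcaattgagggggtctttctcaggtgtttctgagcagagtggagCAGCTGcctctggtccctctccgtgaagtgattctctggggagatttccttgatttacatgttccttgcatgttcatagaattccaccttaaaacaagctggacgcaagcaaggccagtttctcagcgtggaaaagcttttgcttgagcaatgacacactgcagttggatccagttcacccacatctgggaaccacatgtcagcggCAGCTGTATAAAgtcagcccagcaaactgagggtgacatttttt
Fbln2, chr6:91212514-91212813: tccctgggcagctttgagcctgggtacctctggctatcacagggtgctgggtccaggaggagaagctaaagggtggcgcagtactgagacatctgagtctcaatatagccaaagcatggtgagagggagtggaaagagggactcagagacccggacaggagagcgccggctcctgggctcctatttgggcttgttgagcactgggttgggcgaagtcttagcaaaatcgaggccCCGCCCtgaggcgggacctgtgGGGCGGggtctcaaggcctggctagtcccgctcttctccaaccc
The Mmp14 and Fbln2 windows held 2 GC boxes each, and the Dpt window held 1 TATA box and 2 E-boxes. The Pdgfra window held none of these motifs. Among 32851 RefSeq windows of the same length, 35.7% held a GC box, 13.6% a TATA box and 16.3% this E-box. Letters of a motif are a description of the window and not a measured site.

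The 12 luminal and pan-epithelial markers all read above the median on every array, with gene means over the 5 arrays from 6.92 to 11.42. Epcam, a surface adhesion molecule of epithelial cells, read between 9.98 and 10.10 on the 5 arrays, and Krt8, a keratin of luminal cells, between 11.34 and 11.48. Of the 6 basal markers, 4 read above the median on every array, while Oxtr (3.44 to 4.15) read below it. All 20 pan-fibroblast matrix and surface genes also read above the medians on every array. Tcf21 and Clec3b, 2 of the 10 members, read below the median of all 41345 probe sets on every array (medians from 4.24 to 4.29), and with no detection calls their signals cannot be told from background. Knockout 2 stood apart on the first principal component of all genes (25.3, against -12.5 to 4.63 for the others). The array numbers in the labels form 2 runs of consecutive numbers, with knockout 1 and wild type 1 and 2 in the first and knockout 2 and wild type 3 in the second. The labels do not say what a run stands for, and differences within each run are given beside the pooled ones.

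**Figure D1:**
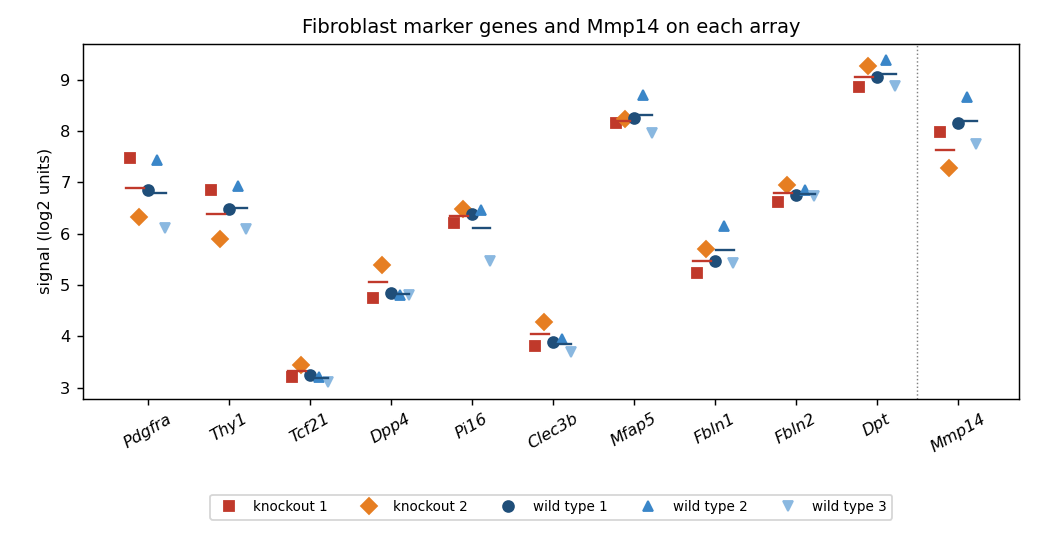
Signal in log2 units (vertical axis) of the 10 fibroblast marker genes and Mmp14 (horizontal axis) on each of the 5 arrays, with short lines at the mean of the 2 knockout arrays (red) and the 3 wild-type arrays (blue). The groups overlap for every gene shown, and knockout 1 and knockout 2 swap places between Pdgfra and Thy1 on one side and the other 8 markers on the other.

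No fibroblast marker separated the genotypes. Of the 10 members, 0 passed limma's test at an adjusted p of 0.05, as did 0% of the 22180 genes (percentage called over all genes), and 0 of the 10 had an unadjusted p under 0.05, against 1.3% of all genes. The knockout arrays lay wholly above the wild-type arrays for 0 members (2.63% of all genes) and wholly below for 0 (2.8% of all genes). The mean was higher in the knockout for 6 members and lower for 4, with a median difference of 0.05, where 48.4% of all genes were higher and their median difference was 0.00. This count of 6 became 10 without wild type 2, 3 without wild type 3 and 4 without knockout 2. Adjusted p-values of the members from limma ran from 0.919 to 1. In bulk RNA, fewer fibroblasts and less RNA per fibroblast cannot be told apart.

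Among the surface molecules, Pdgfra and Thy1 varied most. Pdgfra, the receptor for platelet-derived growth factor that marks mesenchymal cells, read 7.47 in knockout 1 and 6.33 in knockout 2, and 6.86, 7.43 and 6.10 in wild type 1, 2 and 3. Knockout 1 and wild type 2 were the high arrays and wild type 3 and knockout 2 the low ones, so each genotype spanned nearly the whole range of 1.37 log2 units, or 2.58-fold. The difference of knockout minus wild type was 0.10 ± 0.59 (SE; 95% interval -1.57 to 1.77; limma adjusted p = 1). That interval runs from a fold of 0.337 to 3.42, which holds no difference as well as a doubling or a halving.

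Thy1 (CD90), a GPI-anchored glycoprotein of fibroblasts that mouse T cells and neurons also carry, had the same high and low arrays. It read 6.86 in knockout 1 and 5.90 in knockout 2, against 6.48, 6.93 and 6.10 in wild type 1, 2 and 3. The knockout mean was 6.38 ± 0.68 (SD, n = 2) and the wild-type mean 6.50 ± 0.42 (SD, n = 3), a difference of -0.12 ± 0.42 (SE; limma adjusted p = 0.994). Of the 10 pairs of arrays, 8 were in the same order for Thy1 as for Pdgfra. The list of lymphocyte markers joins genes of T cells with genes of B cells, such as Cd79a, so its mean does not measure T cells alone. These markers averaged -0.40 in knockout 1, -0.37 in knockout 2 and 0.34, -0.09 and -0.25 in wild type 1, 2 and 3, each relative to the wild-type mean of 8 genes. All 8 were lower in the knockout mean, 4 lay wholly below the wild type (2.8% of all genes), and 0 passed. Of the 8, 3 read above the array median on every array. The T cell genes Cd3e, Cd3g and Cd8a were lowest in knockout 1 (4.15, 3.95 and 4.06) and highest in wild type 1 (5.44, 5.66 and 4.33). Knockout 1 was thus high for Thy1 and low for the lymphocyte markers, whose part in the Thy1 signal was not tested.

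Dpp4 (CD26), a membrane peptidase of adventitial fibroblasts that is also found on other cells, was set apart by a single array. It read 5.40 in knockout 2, 4.74 in knockout 1 and 4.85, 4.81 and 4.81 in wild type 1, 2 and 3. Knockout 1 was the lowest array and knockout 2 the highest, and wild type 2 and wild type 3 held the same value to 6 decimals. The difference was 0.24 ± 0.22 (SE; limma adjusted p = 0.919). Without knockout 1 it was 0.57 and passed (limma adjusted p = 0.0158), in a fit where 1757 genes passed and the lone knockout array is assumed to vary like the wild type, whose 3 values had an SD of 0.02. Without knockout 2 it was -0.08.

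Tcf21, a basic helix-loop-helix transcription factor of mesenchymal cells, was dim. It read 3.21 and 3.45 in knockout 1 and 2 and 3.24, 3.21 and 3.10 in wild type 1, 2 and 3, where knockout 2 was highest and the rest lay within 0.14 of each other. Its difference of 0.14 ± 0.09 (SE; limma adjusted p = 0.919) comes from a signal below the array medians, and knockout 1 and wild type 2 shared 1 value.

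The secreted products of adventitial fibroblasts were also highest in knockout 2. Pi16, a peptidase inhibitor, read 6.21 and 6.48 in knockout 1 and 2 and 6.39, 6.47 and 5.47 in wild type 1, 2 and 3. Wild type 3 alone was low, by 0.74 from the next array, and the remaining 4 lay close together. The difference was 0.24 ± 0.38 (SE; limma adjusted p = 0.928) and became -0.08 without wild type 3. Clec3b (tetranectin), a plasminogen-binding lectin, read 3.81 and 4.27 in knockout 1 and 2 against 3.90, 3.95 and 3.69, with a difference of 0.20 ± 0.18 (SE; limma adjusted p = 0.919). Its order of arrays was that of Pi16 in 10 of 10 pairs.

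The matrix genes were highest in wild type 2 or knockout 2. Mfap5, a glycoprotein of elastic microfibrils, read 8.16 and 8.24 in knockout 1 and 2 and 8.26, 8.70 and 7.97 in wild type 1, 2 and 3, so that both knockout arrays lay inside the wild-type range. The difference was -0.11 ± 0.25 (SE; limma adjusted p = 0.956). Dpt (dermatopontin), which binds decorin and assists collagen fibril formation, read 8.85 and 9.27 in knockout 1 and 2 against 9.04, 9.39 and 8.89. Knockout 1 was lowest and the difference was -0.05 ± 0.22 (SE; limma adjusted p = 1).

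The 2 fibulins, calcium-binding glycoproteins of elastic fibres and basement membranes, had the same low array. Fbln1 read 5.24 and 5.70 in knockout 1 and 2 and 5.46, 6.15 and 5.44 in wild type 1, 2 and 3, with wild type 2 above the rest by 0.44. Fbln2 read 6.62 and 6.95 in knockout 1 and 2 and 6.76, 6.85 and 6.74 in wild type 1, 2 and 3, with knockout 2 highest. The differences were -0.21 ± 0.31 (SE; limma adjusted p = 0.921) and 0.01 ± 0.12 (SE; limma adjusted p = 1). Knockout 1 was the lowest array for both, as it was for Dpt and Dpp4. Fbln1 and Dpt ordered the arrays alike in 10 of 10 pairs, and Fbln2 and Dpt in 9 of 10.

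**Figure D2:**
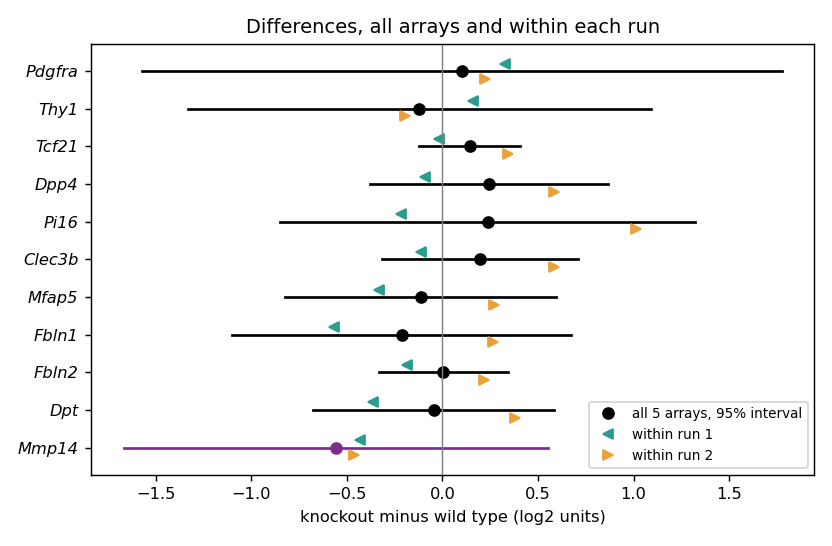
Difference of knockout minus wild type in log2 units (horizontal axis) for each marker gene and Mmp14 (vertical axis): circles with 95% limma intervals over all 5 arrays, left-pointing triangles within run 1 (1 knockout, 2 wild type) and right-pointing triangles within run 2 (1 array each). Every interval holds 0, and 8 of the 10 markers lie left of 0 in run 1 whereas 9 lie right of it in run 2.

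The markers lay on different sides of 0 in the 2 runs of array numbers. Within run 1, 8 of the 10 were lower in knockout 1 than in the mean of wild type 1 and 2 (median -0.15), the exceptions being Pdgfra (0.33) and Thy1 (0.16). Within run 2, 9 of the 10 were higher in knockout 2 than in wild type 3 (median 0.31), from 0.22 for Fbln2 and Pdgfra to 1.01 for Pi16, and Thy1 alone was lower (-0.20). Run 2 has 1 array per genotype and gives no test. Over all genes, 44.0% were higher in the knockout within run 1 and 39.0% within run 2, with a median difference of 0 in each run. The remaining genes were lower or had no difference, as many genes hold equal values on some arrays.

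As a summary of stromal signal, the mean deviation of the 10 members from the wild-type mean of each was 0.00 in knockout 1, 0.08 in knockout 2 and 0.01, 0.27 and -0.28 in wild type 1, 2 and 3. Wild type 2 carried the most and wild type 3 the least, and both knockout arrays lay between them. The mean difference between the genotypes was 0.04, which is smaller than the spread of the wild-type arrays. Such a mean hides members that move in opposite ways. In knockout 1 the members ran from -0.45 (Fbln1) to 0.68 (Pdgfra), and in knockout 2 from -0.60 (Thy1) to 0.57 (Dpp4). Between the knockout arrays, 8 members were higher in knockout 2, by 0.09 (Mfap5) to 0.65 (Dpp4), while Pdgfra was lower by 1.15 and Thy1 by 0.96 (knockout 2 minus knockout 1: -1.15 and -0.96). Between wild type 2 and wild type 3, 9 members were higher in wild type 2, Pdgfra by 1.33, Pi16 by 1.00 and Thy1 by 0.83, and Dpp4 was equal.

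Mmp14 itself read 7.98 in knockout 1, 7.28 in knockout 2 and 8.15, 8.67 and 7.75 in wild type 1, 2 and 3. Knockout 2 was lowest, but knockout 1 lay above wild type 3, and the difference of -0.56 ± 0.39 (SE; 95% interval -1.67 to 0.55) did not pass (limma adjusted p = 0.919). Within the runs it was -0.43 and -0.46. The position of its probes relative to the deleted exons is unknown here, so the signal is no check of the genotype labels.

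Over the wild-type arrays Mmp14 and the mean of the markers ran in the same order. Mmp14 was 0.48 above its wild-type mean in wild type 2 and -0.45 from it in wild type 3, where the mean of the 10 markers was 0.27 and -0.28. The 2 markers nearest to Mmp14 in size on these arrays were Thy1 (0.43 and -0.40) and Mfap5 (0.39 and -0.34). With 5 arrays no correlation was computed.

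In the knockout arrays Mmp14 was low beside the markers. It deviated by -0.21 in knockout 1 and by -0.91 in knockout 2, where the markers averaged 0.00 and 0.08. Mmp14 less the marker mean was therefore -0.21 in knockout 1 and -0.99 in knockout 2, against -0.05, 0.21 and -0.16 in wild type 1, 2 and 3. Both knockout arrays lay below the 3 wild-type arrays on this measure, though knockout 1 only by 0.05 below wild type 3. The difference between the genotypes was -0.60, a value without a test. The macrophage and monocyte markers were also low in knockout 2 (-0.29) and in wild type 3 (-0.29) and high in wild type 2 (0.21), and their part in the Mmp14 signal was not tested. The genotype difference of Mmp14 less the marker mean was -0.21 without knockout 2 and -0.99 without knockout 1, and -0.29 within run 1 and -0.83 within run 2.

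**Figure D3:**
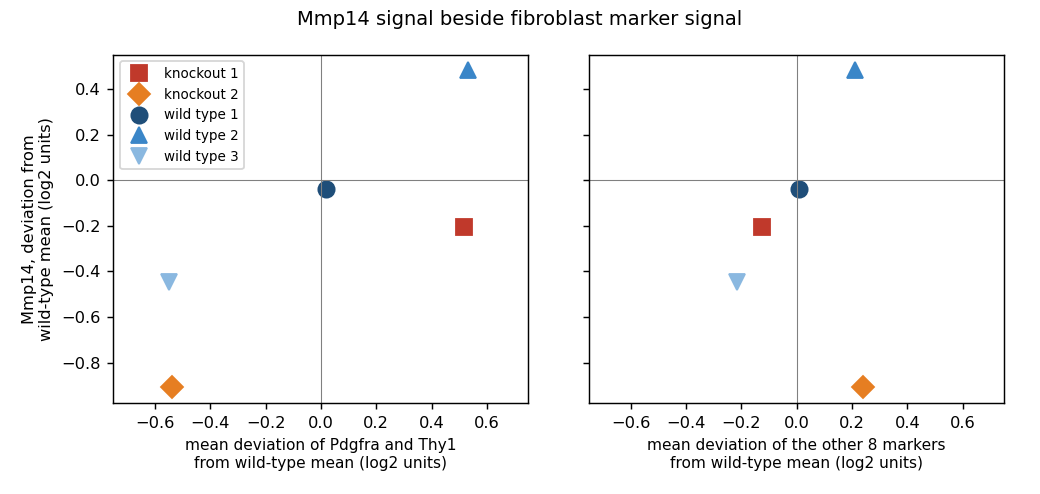
Deviation of Mmp14 from its wild-type mean (vertical axes, log2 units) against the mean deviation of Pdgfra and Thy1 (left horizontal axis) and of the other 8 markers (right horizontal axis), 1 symbol per array. Knockout 2 lies at the lower left beside wild type 3 in the left panel (-0.54) and at the lower right in the right panel (0.24), with Mmp14 at -0.91 in both.

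The comparison depended on which markers stood for stroma. Pdgfra and Thy1 were set against the other 8 after their values had been seen, so this division is a description. In knockout 2 Pdgfra and Thy1 averaged -0.54 and the other 8 averaged 0.24, and in knockout 1 they averaged 0.52 and -0.13. Against Pdgfra and Thy1, Mmp14 was at -0.72 in knockout 1 and -0.37 in knockout 2, with wild-type arrays between -0.06 and 0.10. Against the other 8 it was at -0.08 in knockout 1, inside the wild-type range of -0.23 to 0.27, and at -1.15 in knockout 2. Mmp14 was thus below all wild-type arrays in both knockout arrays when set against Pdgfra and Thy1, and only in knockout 2 when set against the other 8.

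Thy1 was also the member whose arrays ran most like those of Mmp14, with 9 of 10 pairs of arrays in the same order and a root mean square distance of 0.23 log2 units after each gene was centred on its 5-array mean. Mfap5 followed with 8 pairs and 0.34, and Pdgfra with 7 pairs and 0.38. Dpp4 was least alike, with 3 pairs and 0.65. Among the members themselves the smallest distances joined dim or little-varying genes (Tcf21 and Fbln2 at 0.09), and the largest lay between Pdgfra and Dpp4 (0.71, 2 of 10 pairs in the same order). Pdgfra and Thy1 were 0.21 apart, and each was 0.33 or more from every other member.

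The 8 genes whose pattern was most like the mean of the 10 members are in none of the fibroblast lists. By the smallest distance over the 5 arrays, among 3934 genes with a signal above the median gene and 5 different values, they were Il4ra, the receptor chain for interleukin 4 (0.01), Selenop, a secreted selenium carrier (0.03), Zfp628, a zinc finger protein (0.03), Il1rl2, the interleukin 36 receptor (0.04), Dab2, an endocytic adaptor (0.04), Elmo1, a regulator of Rac in cell engulfment (0.04), Col4a2, a chain of basement membrane collagen (0.04), and Fat4, a giant cadherin (0.05). Il4ra, the nearest, read 7.65 and 7.72 in knockout 1 and 2 and 7.65, 7.91 and 7.36 in wild type 1, 2 and 3. The shared pattern is high in wild type 2, low in wild type 3 and level in the other arrays. These 8 were picked as the nearest, so their distances are small by choice. A member set against the mean of the other 9 lay between 0.11 (Mfap5) and 0.51 (Pdgfra).

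**Figure D4:**
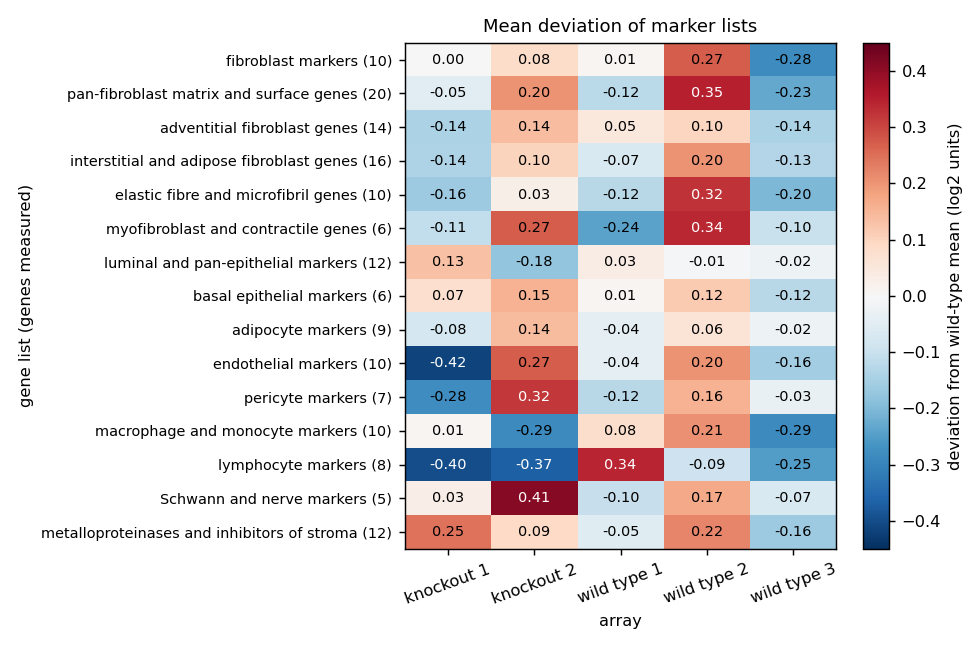
Mean deviation from the wild-type mean in log2 units (colour and printed value) of 15 marker lists (vertical axis, genes measured in brackets) on each array (horizontal axis). Wild type 3 is below 0 in all 15 lists and wild type 2 above 0 in 13 of them, fibroblast lists or not, and knockout 1 and knockout 2 lie at opposite ends for endothelial (-0.42 and 0.27) and pericyte markers (-0.28 and 0.32).

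Other genes of fibroblasts had members higher and lower in the knockout mean, with 0 passing. The 20 pan-fibroblast matrix and surface genes averaged -0.05 in knockout 1 and 0.20 in knockout 2, and -0.12, 0.35 and -0.23 in wild type 1, 2 and 3. Of them 15 were higher and 5 lower in the knockout mean, 0 passed limma's test, and the median difference was 0.12. Lum (lumican), a collagen-binding proteoglycan, read 9.46 and 9.77 in knockout 1 and 2 and 9.01, 9.57 and 9.04 in wild type 1, 2 and 3 (0.41 ± 0.23, SE). Col6a3, a chain of microfibrillar collagen VI, read 6.89 and 7.46 in knockout 1 and 2 against 7.48, 7.74 and 7.46 (-0.39 ± 0.22, SE). Dcn (decorin) differed by 0.17 ± 0.17 (SE) and Col3a1, a fibrillar collagen chain, by 0.29 ± 0.29 (SE). Limma's adjusted p was 0.919 for each of these 4. Within run 1, 16 of the 20 were lower in the knockout, and within run 2, 19 were higher. The count of 15 was 11 without knockout 2.

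The 14 adventitial genes (median 0.01, 8 higher and 6 lower, 0 passing) and the 16 interstitial and adipose genes (median 0.00, 10 higher and 6 lower, 0 passing) had members on both sides. The adventitial list averaged -0.14 in knockout 1 and 0.14 in knockout 2, and 0.05, 0.10 and -0.14 in wild type 1, 2 and 3. The interstitial list averaged -0.14 in knockout 1 and 0.10 in knockout 2, and -0.07, 0.20 and -0.13 in wild type 1, 2 and 3. Knockout 2 was the highest array for the adventitial list and wild type 2 for the interstitial list. Efemp1, a fibulin of the adventitial list, read 7.16 and 7.68 in knockout 1 and 2 and 7.13, 7.16 and 6.57 in wild type 1, 2 and 3, highest and lowest on the same arrays as Pi16. Its values in knockout 1 and wild type 2 were equal. Clec11a, a secreted growth factor of stroma, was lower in both knockout arrays than in the wild type, at 4.55 and 4.65 in knockout 1 and 2 and 4.75, 4.93 and 4.75 in wild type 1, 2 and 3 (-0.21 ± 0.08, SE; limma adjusted p = 0.919). Gdf10, a secreted relative of the bone morphogenetic proteins, was at -0.36 ± 0.25 (SE). Of the 10 measured elastic fibre and microfibril genes, the partners of Mfap5 and the fibulins, 3 were higher and 7 lower (median -0.08), and 0 passed. Among them Fbn2, a fibrillin, was dim and differed by -0.09 ± 0.06 (SE), and Eln, elastin, read 5.64 and 6.46 in knockout 1 and 2 against 6.14, 6.76 and 6.28, so that knockout 1 was lowest as for Fbln1. Mfap2, another microfibril glycoprotein, was higher in both knockout arrays than in the wild type (0.28 ± 0.12, SE; limma adjusted p = 0.919). Without knockout 1, 7 of these 10 genes were higher in place of 3.

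Markers of vessels differed between the knockout arrays in the same direction as 8 of the 10 fibroblast markers. All 10 endothelial markers were lower in knockout 1 than in the wild-type mean, with a list mean of -0.42, and 8 of 10 were higher in knockout 2, with a mean of 0.27. Their mean level ran from 6.16 to 6.85 in the knockout and from 6.42 to 6.78 in the wild type. The 7 pericyte markers were all lower in knockout 1 (-0.28) and all higher in knockout 2 (0.32), with a mean level of 5.56 in knockout 1 and 6.16 in knockout 2, and of 5.72, 6.0001 and 5.81 in wild type 1, 2 and 3. The 12 luminal and pan-epithelial markers went the other way, with 11 higher in knockout 1 (mean 0.13) and 9 lower in knockout 2 (-0.18), and mean levels of 9.09 to 9.40 in the knockout and 9.25 to 9.30 in the wild type. Pdgfra and Thy1 were high in knockout 1 and low in knockout 2, the direction of the luminal markers between these 2 arrays. Over wild type 2 and 3 the luminal list lay at -0.01 and -0.02, where Pdgfra lay at 0.63 and -0.69. Postn of the pan-fibroblast list had Pdgfra's order of arrays (10.35 and 9.85 in knockout 1 and 2). Loxl1 of the elastic fibre list had it too (6.02 and 5.47). In these 2 lists, 16 of 20 and 6 of 10 genes were higher in knockout 2 than in knockout 1. Creb5 of the adventitial list also had Pdgfra's order (9.48 and 9.34). So did 2 keratins of the basal epithelial list, Krt14 (9.29 and 9.16) and Krt17 (9.85 and 9.01). Higher in knockout 2 than in knockout 1 were 9 of the 14 adventitial genes and 2 of the 6 basal markers. Pdgfra's order was therefore not particular to genes of stroma. The 10 macrophage and monocyte markers averaged 0.01 in knockout 1 and -0.29 in knockout 2, and 0.08, 0.21 and -0.29 in wild type 1, 2 and 3, with 1 higher and 9 lower in the knockout mean and mean levels of 5.40 to 5.69 in the knockout and 5.40 to 5.89 in the wild type. The part of these cell types in the marker values was not tested. Wild type 3 had a negative mean deviation in all 15 lists, and wild type 2 a positive one in 13, so these signs are not particular to the fibroblast lists. The sizes differed between lists. In wild type 3 the luminal and adipocyte lists lay at -0.02 each, against -0.28 for the 10 members and -0.29 for the macrophage and monocyte list.

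The stromal metalloproteinases gave a further view of the same arrays. Of 12 measured proteases and inhibitors, 8 were higher and 4 lower in the knockout mean, with a median of 0.08, and 0 passed. Mmp3 (stromelysin 1), made chiefly by fibroblasts, read 8.80 and 8.37 in knockout 1 and 2 and 7.78, 8.47 and 7.16 in wild type 1, 2 and 3 (0.77 ± 0.46, SE; limma adjusted p = 0.919). Mmp2, the gelatinase activated by MMP14, read 8.30 and 8.59 in knockout 1 and 2 against 7.85, 8.41 and 7.70 (0.46 ± 0.27, SE; limma adjusted p = 0.919). Mmp13, an interstitial collagenase, was higher in both knockout arrays than in the wild type, at 5.84 and 5.91 in knockout 1 and 2 and 5.60, 5.55 and 5.77 in wild type 1, 2 and 3 (0.24 ± 0.08, SE; limma adjusted p = 0.919). Wild type 3 was the lowest array and wild type 2 the highest wild-type array for Mmp3 and Mmp2, as for Pdgfra, Pi16 and Mfap5.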

How the data were processed

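The authors deposited log2 signals per probe set for 5 arrays. The submitters' processing notes name the tools RMA (background correction, quantile normalization and summary by median polish) and limma, without versions. Library files and the genome build were not stated. Of 41345 probe sets, the platform annotation names 1 symbol for 23521, several for 1814 and does not list 16010. Probe sets with 1 symbol were kept, 1 per gene by the highest mean over the 5 arrays (22180 genes). Of these genes, 68.8% held equal values (to 6 decimals) on at least 2 arrays, which lowers their estimated spread.

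Differences, knockout minus wild type, come from limma (version 3.58.1, R 4.3.3), with lmFit and eBayes run on all genes without covariates, two-sided, Benjamini-Hochberg adjustment and a threshold of 0.05. The SE is limma's moderated SE. Intervals are limma's at 95%. The procedure was checked on simulated data with independent noise and no equal values, and calls were required only for effects larger than any reported here. The check does not show how often differences of the reported size would be called. The members and the 15 gene lists were chosen with earlier results of these data known. Named are all members, Mmp14, up to 4 genes per list by moderated t, and the 8 genes most like the members. Epcam and Krt8 were named as defining epithelial markers, and Cd3e, Cd3g and Cd8a as T cell genes. Postn, Loxl1, Creb5, Krt14 and Krt17 were named for their order of arrays. For several lists only some of the eligible genes are named, picked after their values were seen. Alternatives were the arrays left out in turn, quantile normalization, median centring, averaging of probe sets per gene, the run of array numbers, the replicate number as a block, a filter under the 40th percentile, an intensity trend and all probe sets. Promoter windows are from RefSeq on GRCm38.p6, and 7 of the 10 members matched. The number of arrays limits the precision.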

Additional observations from a re-analysis of the deposited data

How the results depend on the processing

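Direction was not settled for most members. With 1 array left out, differences ran from -0.47 to 0.68 for Pdgfra, -0.60 to 0.36 for Thy1, -0.083 to 0.57 for Dpp4, 0.03 to 0.26 for Tcf21, -0.083 to 0.42 for Pi16, -0.037 to 0.43 for Clec3b, -0.29 to 0.081 for Mfap5, -0.45 to 0.020 for Fbln1, -0.16 to 0.17 for Fbln2, -0.25 to 0.16 for Dpt and -0.91 to -0.21 for Mmp14. The sign also turned within run 1 for Dpp4 (-0.090), Pi16 (-0.22), Clec3b (-0.11), Tcf21 (-0.016), Fbln2 (-0.18) and Thy1 (0.16), and within run 2 for Mfap5 (0.27), Fbln1 (0.26) and Dpt (0.38). The run as a fixed block turned Fbln2 (-0.012) and Thy1 (0.0055), and median centring turned Fbln2 (-0.00043). Mmp14 stayed lower in the knockout in each alternative.

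The members called by limma were 0 to 1 with 1 array left out (Dpp4, without knockout 1), and all genes called 0 to 1757 (1757 without knockout 1, 835 without knockout 2). In the other alternatives that gave a test both were 0. The filter on dim genes left 9 of the 10 members (Tcf21 was removed), so no mean over all members is given under it. Members with a higher knockout mean were 3 to 10 with 1 array left out and 2 within run 1, a count added after seeing the data. Their mean difference was -0.10 to 0.18 with 1 array left out, -0.14 within run 1 and 0.37 within run 2. Mmp14 less the marker mean was -0.99 to -0.21 with 1 array left out.

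With the replicate number as a block, Pdgfra was at -0.25, Pi16 at -0.083 and Fbln2 at -0.017, 3 members were higher, and 0 members and 0 genes passed. Wild type 3 is the only array of replicate 3, so the block leaves it no weight in the differences. They equal those without wild type 3 (mean member difference -0.10 in both), so the block is not a separate check. The shared numbers alone do not establish pairing. Deviations correlated across genes at 0.245 for replicate 1 and -0.0436 for replicate 2, and there are 2 such pairs. These values cannot decide on pairing. With 2 knockout arrays the deviations of 1 are the negative of the other's, so knockout 2 with wild type 1 gave -0.245. Knockout 1 and wild type 1 also share a run, whereas knockout 2 and wild type 2 do not. Why wild type 3 differs from the other wild-type arrays was not tested.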

Other observations

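The likeness of the members to Mmp14 was ranked after the values were seen. Among 3940 genes with 5 different values and a signal above the median gene, Thy1 was the 29th nearest to Mmp14 by the root mean square distance of centred values over the 5 arrays, Mfap5 was at rank 437, Pdgfra at 954 and Pi16 at 3153. Against the mean pattern of the 10 members, Mmp14 was at rank 3718 of 3934, with a distance of 0.40.

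The Schwann and nerve markers had a high mean in knockout 2, to which Cdh19 and S100b added most. The 5 measured Schwann and nerve genes averaged 0.03 in knockout 1 and 0.41 in knockout 2, and -0.10, 0.17 and -0.07 in wild type 1, 2 and 3. Cdh19, a cadherin of Schwann cells, read 4.76 in knockout 2 and between 3.49 and 3.69 on the other 4 arrays, which is the pattern of Dpp4, where knockout 2 alone was high. S100b, a calcium-binding protein, read 6.05 in knockout 2 and 5.42 in knockout 1, while Ngfr, a neurotrophin receptor, read 3.19 and 3.15, and Sox10, a transcription factor of Schwann cells, went the other way at 4.24 and 4.45. None of the 5 passed limma's test (adjusted p = 0.919 for Cdh19).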
